A study of Mus musculus with 2 samples.

Results

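Neutrophil granule genes encode the antimicrobial cargo that neutrophils store for release against microbes. The 10 genes described here were chosen by symbol: the primary granule genes Elane, Prtn3, Ctsg and Mpo, the secondary granule genes Ngp, Camp, Ltf and Lcn2, and the calprotectin genes S100a8 and S100a9. Every region that the authors' deposited table assigns to one of these symbols was taken, which gave 7 of 20615 regions and 5 of 12553 genes. Elane, Ctsg and Ngp had 1 region each, and Camp and S100a9 had 2 each. Prtn3, Mpo, Ltf, Lcn2 and S100a8 had no region and are unmeasured here.

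The measurements are chromatin immunoprecipitation and sequencing of histone H3 acetylated at lysine 9 (H3K9ac), a mark of active promoters, in leukemic spleen cells of mice. The 36N library came from the strain Gfi1 36N/N-Nup98/HoxD13 and the 36S library from Gfi1 36S/S-Nup98/HoxD13. Both therefore carry the NUP98/HOXD13 fusion, which causes myelodysplasia and leukemia, and human GFI1, a transcriptional repressor, as a cDNA with asparagine (36N) or serine (36S) at residue 36. With 1 library per genotype there is no replicate check of any difference, and p-values are not given. The sources used here give neither the age nor the number of the mice behind a library, nor the promoter of the fusion or an input control. In whole spleen cells, fewer cells of a type and less acetylation per cell cannot be told apart.

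Primary granules form first, at the promyelocyte stage, and hold serine proteases and myeloperoxidase. Secondary granules form later, in myelocytes and metamyelocytes, hold iron-binding and antimicrobial proteins, and depend on the factor C/EBP epsilon. GFI1 is needed for neutrophil maturation, and it silences genes with the help of histone deacetylases and a lysine demethylase. Elane is a known target of GFI1.

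The bases before the start of each measured gene are shown because H3K9ac regions begin there and because primary and secondary genes are contrasted below. They are the 250 bases before the annotated start (RefSeq, GRCm38.p6), 5′ to 3′ along the gene's strand. Elane (chr10:79886062-79886311) and Ngp (chr9:110419558-110419807) lie on the plus strand, and Ctsg (chr14:56102575-56102824), Camp (chr9:109849457-109849706) and S100a9 (chr3:90695722-90695971) on the minus strand. Capitals mark matches, on either strand, to GAGGAA, a core of sites bound by the myeloid factor PU.1, or to TTNNGNAA, a relaxed form of the C/EBP site.
Elane: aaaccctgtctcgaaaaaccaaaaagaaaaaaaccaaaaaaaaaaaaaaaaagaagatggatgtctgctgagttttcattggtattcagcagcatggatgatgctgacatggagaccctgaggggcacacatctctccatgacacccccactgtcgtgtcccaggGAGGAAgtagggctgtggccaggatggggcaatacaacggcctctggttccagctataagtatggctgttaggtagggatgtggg
Ctsg: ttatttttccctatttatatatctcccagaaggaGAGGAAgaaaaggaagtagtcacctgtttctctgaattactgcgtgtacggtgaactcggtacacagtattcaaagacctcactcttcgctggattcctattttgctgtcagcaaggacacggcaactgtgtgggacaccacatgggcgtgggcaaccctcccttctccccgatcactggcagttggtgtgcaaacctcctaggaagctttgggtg
Ngp: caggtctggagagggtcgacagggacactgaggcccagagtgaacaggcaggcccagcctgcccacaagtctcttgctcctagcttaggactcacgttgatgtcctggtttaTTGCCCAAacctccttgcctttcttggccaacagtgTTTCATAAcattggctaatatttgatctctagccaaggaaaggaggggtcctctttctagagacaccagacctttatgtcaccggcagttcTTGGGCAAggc
Camp: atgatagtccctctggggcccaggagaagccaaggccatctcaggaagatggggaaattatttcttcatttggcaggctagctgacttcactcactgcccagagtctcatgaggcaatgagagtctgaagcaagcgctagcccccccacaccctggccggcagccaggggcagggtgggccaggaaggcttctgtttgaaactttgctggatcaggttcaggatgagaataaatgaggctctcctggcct
S100a9: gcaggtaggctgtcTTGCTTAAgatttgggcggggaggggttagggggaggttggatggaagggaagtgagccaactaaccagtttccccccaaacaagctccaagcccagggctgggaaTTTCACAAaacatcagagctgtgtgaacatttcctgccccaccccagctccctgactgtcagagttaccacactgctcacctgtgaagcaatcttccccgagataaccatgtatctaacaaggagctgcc
All 10 genes matched a RefSeq promoter window. GAGGAA occurred in 4 of 4 primary, 2 of 4 secondary and 1 of 2 calprotectin genes, against 23.3% of the 32851 windows of the table. TTNNGNAA occurred in 0 of 4 primary genes, 3 of 4 secondary genes (all but Camp) and 2 of 2 calprotectin genes, against 36.8% of all windows. AAATCA, around the AATC core of GFI1 sites, was in 1 of the 10 (Ltf) and in 12.4% of all windows. TGTGGT, the RUNX core, was in Ctsg and S100a9 and in 14% of all windows. AACNG, the MYB core, was in all 10 and in 74.2% of all windows. Matches to different motifs overlapped by 1 or 2 bases in 4 cases, in Ltf, Lcn2 and S100a8. These letters were searched on both strands and are a description, not evidence of binding. The H3K9ac regions of Ctsg, Ngp and Camp hold all 250 bases, that of S100a9 the last 129 and that of Elane the last 61. The match in Elane, which starts 85 bases before the gene, therefore lies outside its region. Those in S100a9 start 236 and 130 bases before the gene, the first outside its region and the second at its edge.

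Over the measured genes, the 36N library had more H3K9ac reads than the 36S library at both primary granule genes and fewer at both secondary granule genes and at S100a9. These read numbers are not scaled for depth. The 36N library held fewer reads over all regions (3292869) than the 36S library (4989632), so fewer reads at a gene need not be a loss at that gene. Elane, which encodes neutrophil elastase, had 116 reads in the 36N library and 74 in the 36S library (chromosome 10, 79886251 to 79888200). Ctsg, which encodes the protease cathepsin G, had 267 reads in the 36N library and 162 in the 36S library (chromosome 14, 56099851 to 56103150). Both primary granule genes were thus on the higher side in 36N. Ngp, a cystatin-like protein of secondary granules, had 484 reads in the 36N library and 738 in the 36S library (chromosome 9, 110419201 to 110423400). Camp, the cathelicidin antimicrobial peptide, had 309 reads in the 36N library and 423 in the 36S library (chromosome 9, 109846501 to 109849800). S100a9, which forms calprotectin with S100a8 and is held mainly in the cytosol, had 614 reads in the 36N library and 853 in the 36S library (chromosome 3, 90692101 to 90695850). The secondary granule genes and S100a9 were on the lower side in 36N, and they were the 3 strongest regions of the 7 in both libraries.

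**Figure D1:**
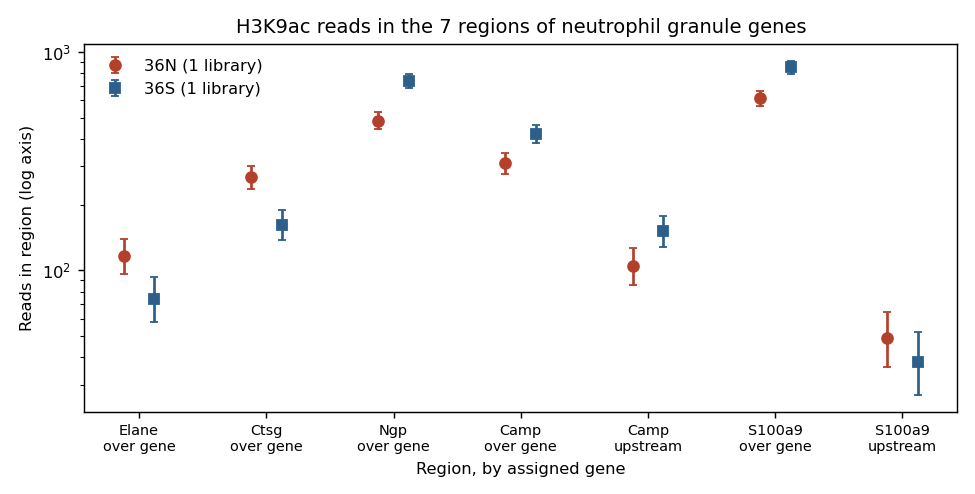
Reads in each region (log axis) for 36N (circles, left) and 36S (squares, right), 1 library each, with exact 95% Poisson intervals that cover counting error only. Elane and Ctsg are higher in 36N (116 and 267 reads) than in 36S (74 and 162 reads), and the regions over Ngp, Camp and S100a9 are lower. Reads are not scaled for depth, and the 36N library held fewer reads over all regions.

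As a difference of the deposited log2 values, 36N minus 36S, Elane was at 0.68 (95% counting interval 0.24 to 1.12) and Ctsg at 0.75 (0.46 to 1.04). The interval is exact given both read numbers (Clopper-Pearson) and leaves out the spread between animals. Ngp was at −0.58 (−0.75 to −0.41), Camp at −0.43 (−0.64 to −0.21) and S100a9 at −0.45 (−0.60 to −0.30). All 5 intervals excluded 0, but 72.1% of all genes were below 0 on this scale, and the share of all genes with such an interval was not computed. The intervals of Ngp, Camp and S100a9 hold the median of all genes (−0.53), and those of Elane and Ctsg lie above it. In fold terms the 36N library had 1.6 times the 36S value at Elane and 1.68 times at Ctsg, but 0.668 times at Ngp, 0.744 times at Camp and 0.733 times at S100a9. By a size rule of 1 log2 unit (2-fold), 0 of the 5 measured genes were higher or lower in 36N. Over all 12553 genes, each given its strongest region, 7.37% were higher by that rule and 12.6% were lower. The median of the 5 genes was −0.43, and that of all genes was −0.53. Over all genes 27.9% were above 0, so Elane and Ctsg stood on the less common side.

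Where a gene falls on the deposited scale depends on how strong its region is, because strong regions as a whole were lower in 36N. The mean levels of the 2 libraries placed Elane above 51.7% of all regions and Ctsg above 67.4%. Camp was above 80.9%, Ngp above 93.4% and S100a9 above 96.5%. The general trend of the difference on level (a lowess curve over all autosomal regions) was −0.22 at the level of Elane and −0.50 at that of Ctsg. It was −0.68 at the level of Camp and −0.74 at those of Ngp and S100a9. The level-adjusted difference, the distance from that trend, was above 0 in all 5 genes and in 51.8% of all genes. The median of the 5 genes was 0.29, against 0.02 over all genes. Ctsg stood at 1.25 and Elane at 0.90. S100a9 was at 0.29, Camp at 0.26 and Ngp at 0.15, so the sign of these 3 genes rests on the scaling. The counting interval of Ngp (−0.75 to −0.41) holds the trend at its level. Level-adjusted, 1 of the 5 genes (Ctsg) was higher by 1 log2 unit or more, against 8.66% of all genes, and Ctsg alone passed with a lowess fraction of 0.6 (8.75%) and after quantile normalization (8.70%). Relative to the median region, Elane and Ctsg both passed (12.9% of all genes were higher), as they did after division by all reads in regions (16.3%) and under a 1.5-fold rule on the deposited values (13.1% higher, 46.0% lower).

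**Figure D2:**
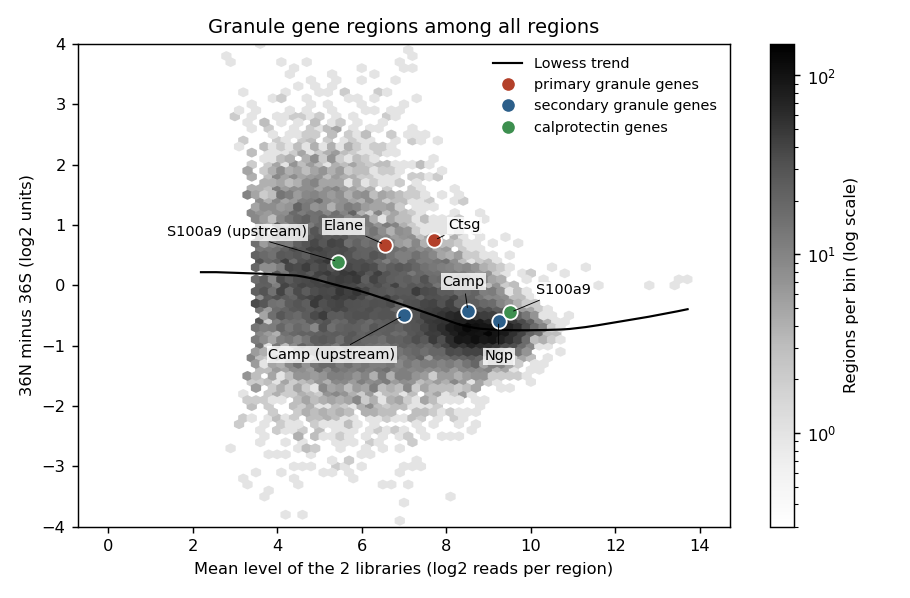
Difference 36N minus 36S (log2 units) against the mean level (log2 reads per region) for all 20615 regions (grey bins, of which 20 regions lie beyond the vertical axis), with the lowess trend (line) and the 7 granule gene regions (points). Elane and Ctsg lie above the trend by 0.90 and 1.25, and Ngp, Camp and S100a9 lie between 0.15 and 0.29 above it.

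Set beside regions of like strength, Ctsg stood farthest out. Of 1469 other regions whose mean level lay within 0.25 log2 units of that of Ctsg, 30 had a higher difference, and their median was −0.52. For Elane 191 of 1499 such regions had a higher difference (median −0.20). For S100a9 it was 97 of 958 (median −0.75), for Camp 373 of 1976 (median −0.73) and for Ngp 316 of 1392 (median −0.76). These counts are descriptions of 2 libraries, and regions are not replicates.

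The contrast between primary and secondary granule genes does not depend on a scaling constant when it is formed within each library. Elane and Ctsg together held 383 reads in the 36N library, against 793 over Ngp and Camp, a ratio of 0.483. In the 36S library they held 236 reads against 1161, a ratio of 0.203. The ratio was 2.38 times as high in 36N (95% counting interval 1.97 to 2.87), and 2.32 times as high (1.94 to 2.78) with S100a9 counted beside Ngp and Camp. All 6 pairings of a primary gene with Ngp, Camp or S100a9 gave a higher ratio in 36N, from 2.14 times (Elane over Camp, 1.53 to 3.02) to 2.51 times (Ctsg over Ngp, 1.99 to 3.17). That direction follows from the read numbers, which were higher in 36N at the primary genes and lower at the others. The pairings reuse the same genes and are not separate evidence. As medians of the deposited differences, the primary genes were at 0.71 and the secondary genes at −0.50, a contrast of 1.22 log2 units (counting interval 0.93 to 1.5). The primary regions are the weaker ones. Level-adjusted, the medians were 1.07 for primary and 0.21 for secondary genes, and the contrast was 0.87. Each group is represented by 2 of its 4 genes, and genes are not replicates of a genotype. The wider lists described below did not repeat this order. As deposited, the median of 6 further primary granule genes was −0.05 and that of 7 further secondary and tertiary genes 0.28. Level-adjusted, these medians were 0.40 and 0.41.

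**Figure D3:**
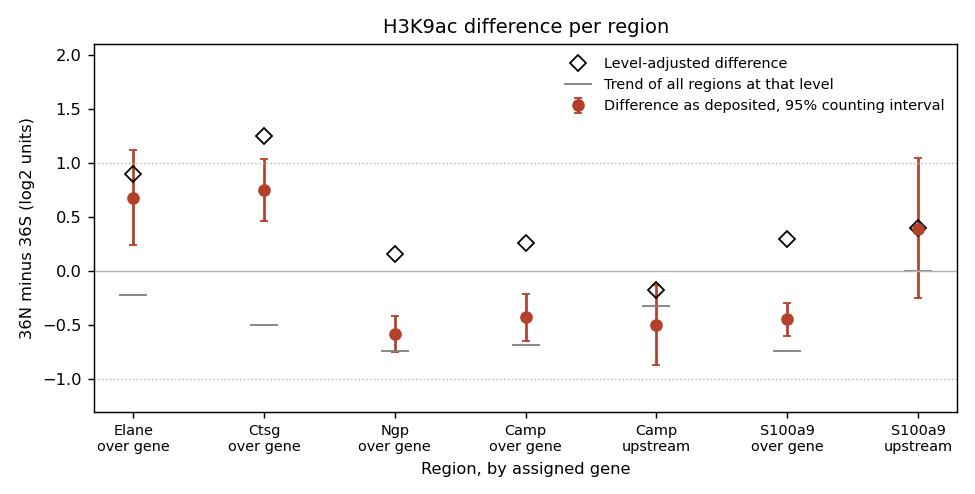
Difference 36N minus 36S per region (log2 units) as deposited (filled points with 95% counting intervals), level-adjusted (diamonds), and the trend of all regions at the same level (grey dashes), with dotted lines at 1 log2 unit either way. As deposited the primary genes Elane (0.68) and Ctsg (0.75) are above 0 and Ngp (−0.58), Camp (−0.43) and S100a9 (−0.45) below it. Level-adjusted, all 5 regions over genes are above 0, as 51.8% of all genes are.

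The regions over the measured genes shared a shape. The RefSeq genes are 1905 to 3205 bp long, and in all 5 the region covered at least 95% of the gene. Among 320 genes of that length with an overlapping region, 34 (10.6%) were covered to that extent by their strongest region. These genes were matched on gene length and not on the strength of the region. The Ngp region was 4200 bp long, longer than 99.2% of all regions, and reached from 607 bp before the gene's start to 388 bp past its end. The S100a9 region was 3750 bp long and the Ctsg and Camp regions 3300 bp each, while the Elane region, at 1950 bp, was longer than 65.9% of all regions. The Ctsg region began 576 bp before the gene's start and the Camp region 344 bp before it, whereas those of S100a9 and Elane began 129 and 61 bp before it. Per length, the level at Elane was 59.5 reads per kb in the 36N library and 37.9 in the 36S library. The level at Ctsg was 80.9 reads per kb in 36N and 49.1 in 36S. The level at Ngp was 115 reads per kb in 36N and 176 in 36S, and that at Camp was 93.6 in 36N and 128 in 36S. S100a9 was the densest, at 164 reads per kb in 36N and 227 in 36S. The order of the 5 genes by density was the same in both libraries.

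Camp and S100a9 each had a second, weaker region that lies before the gene's start. The table calls these regions downstream, but by strand both lie upstream, since its word gives the place of the gene relative to the region. The second Camp region (chromosome 9, 109861351 to 109863600), 11895 bp away, overlaps the predicted gene Gm39427. It had 105 reads in 36N and 151 in 36S, a difference of −0.50 (−0.87 to −0.13) and of −0.17 level-adjusted, the only region of the 7 below the trend. The second S100a9 region (chromosome 3, 90702001 to 90703050), 6280 bp away, overlaps no RefSeq gene. It had 49 reads in 36N and 38 in 36S, a difference of 0.39 with an interval (−0.25 to 1.04) that includes 0, too few reads to detect a difference of this size. As deposited, both Camp values were below 0 and the S100a9 values differed in sign, whereas level-adjusted the Camp regions differed in sign (0.26 and −0.17) and both S100a9 regions were above 0 (0.29 and 0.39).

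The 5 genes without a region were placed by the regions next to them. Mpo, which encodes the peroxidase of primary granules, lies between regions that were both higher in 36N by over 1 log2 unit. The region before it (28633 bp away, given to Bzrap1 and over Tspoap1 in RefSeq) had 169 reads in 36N and 57 in 36S, a difference of 1.59 (1.15 to 2.05). The region after it (48338 bp away, over Mks1) had 69 reads in 36N and 33 in 36S, a difference of 1.09 (0.47 to 1.74). By this rule 7.49% of all regions were higher and 14.1% were lower. Prtn3, the gene of proteinase 3, lies between the Elane region (3076 bp away) and a region over Plppr3 (given to BC005764, 3616 bp away). The Plppr3 region had 218 reads in 36N and 136 in 36S, a difference of 0.71 (0.39 to 1.03) that is close to that of Elane. On the far side of Elane the region given to Med16 was lower in 36N, with 226 reads against 471 in 36S (−1.03, −1.27 to −0.80). Higher values stood on both sides of Mpo and of Prtn3, where the region past the gene's end is that of Elane, already described above.

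Next to the unmeasured secondary granule genes all 4 flanking values were below 0 as deposited, as were 66.7% of all regions. All 4 were also below the trend, and 48.4% of all regions lay above it. Ltf, which encodes the iron-binding protein lactoferrin, has the Ccrl2 region 11684 bp past its end, with 316 reads in 36N and 877 in 36S (−1.45, −1.64 to −1.26), which is −0.71 from the trend. The region before Ltf, given to Gm10030, had 43 reads in 36N and 51 in 36S (−0.22, −0.84 to 0.39), which is −0.20 from the trend. Lcn2, which encodes the siderophore-binding lipocalin 2, lies between the Ptges2 region at −0.78 (−0.97 to −0.59) and the 1110008P14Rik region at −0.64 (−0.89 to −0.38), −0.06 and −0.05 from the trend. The counting intervals of the Gm10030, Ptges2 and 1110008P14Rik regions hold the trend at their levels, and that of the Ccrl2 region lies below it. S100a8 lies between S100a9 and the S100a6 region, which was at −0.17 (−0.49 to 0.15). The neighbours of Ngp, over Ptpn23 (−0.36) and Klhl18 (−0.66), and of Camp, over Nme6 (−0.47) and Cdc25a (−0.80), were also below 0 as deposited. Level-adjusted, however, Ptpn23 (0.36), Nme6 (0.09) and Klhl18 (0.01) were above the trend, and Cdc25a (−0.06) was below it. With a lowess fraction of 0.6 Klhl18 was at −0.03. Ctsg stood alone, with its nearest region (Sdr39u1, −0.39) 198784 bp away. Leaving out regions of the 10 genes themselves, 14 distinct flanking regions were found within 200000 bp, of which 2 were higher by 1 log2 unit or more and 2 were lower by as much. Above the trend lay 7 of the 14 (6 with a lowess fraction of 0.6), against 48.4% of all regions. A flanking region is no measure of the unmeasured gene.

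**Figure D4:**
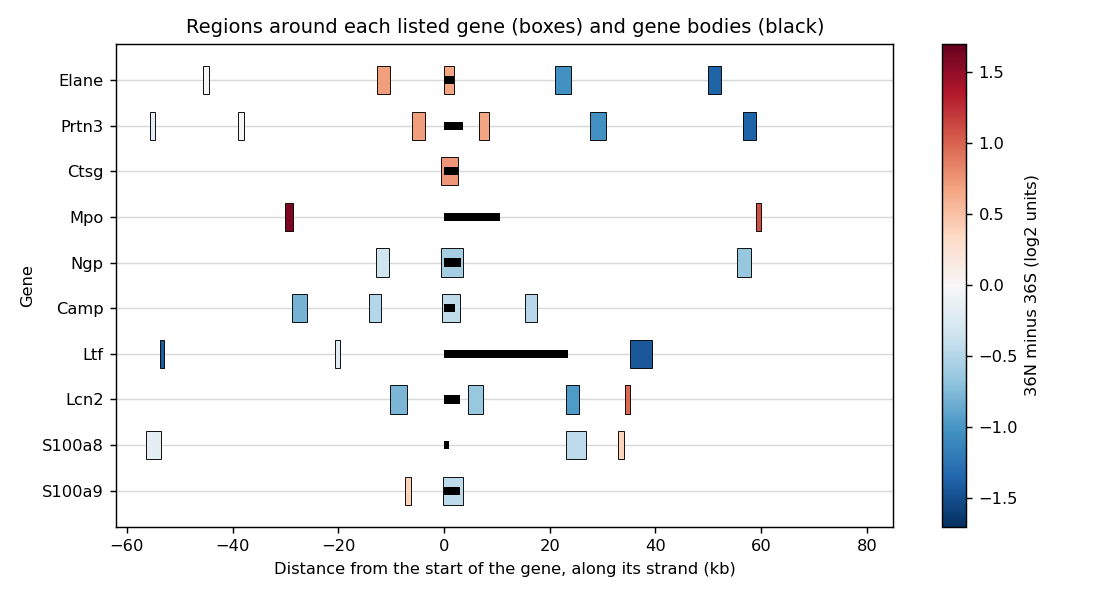
Regions (boxes, coloured by the difference 36N minus 36S in log2 units) around the start of each of the 10 genes, by distance along the gene's strand in kb, with gene bodies in black. Elane, Ctsg, Ngp, Camp and S100a9 lie under a region, and the regions either side of Mpo (1.59 and 1.09) and of Prtn3 (0.71 and 0.68) are higher in 36N.

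Other genes of the granule programme lay mostly above the trend, as 51.8% of all genes did. Of 10 further genes listed as primary granule genes, not all of which encode granule cargo, 6 had a region. As deposited, 0 passed 1 log2 unit in either direction (over all genes 7.37% were higher and 12.6% lower). All 6 lay above the trend (5 with a lowess fraction of 0.6, where Gpi1 fell just below it). The median was −0.05 as deposited and 0.40 level-adjusted. Ctsc, whose product cathepsin C activates the granule proteases, had 359 reads in 36N and 214 in 36S, a difference of 0.77 (0.52 to 1.02). Ms4a3, a membrane protein gene of granulocyte and monocyte precursors, had 196 reads in 36N and 118 in 36S, a difference of 0.76 (0.42 to 1.10). Ctsc and Ms4a3 were as high as Elane and Ctsg, and level-adjusted both were past 1 log2 unit (1.38 and 1.15), as 8.66% of all genes were. Cst7, which encodes the protease inhibitor cystatin F, was at 0.10 (−0.32 to 0.52) and Cd63, a granule membrane tetraspanin gene, at −0.21 (−0.43 to 0.01). Serpinb1a, an inhibitor of the granule proteases, was at −0.36 (−0.66 to −0.06), and Gpi1, a glycolytic enzyme gene, at −0.57 (−0.82 to −0.31).

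Of 16 further secondary and tertiary granule genes 7 had a region. By the rule of 1 log2 unit 1 was higher and 0 were lower, against 7.37% and 12.6% of all genes. The one was Arg2, which encodes a mitochondrial arginase and not a granule protein, with 65 reads in 36N and 26 in 36S, a difference of 1.35 (0.67 to 2.06). Cybb, the catalytic subunit of the NADPH oxidase, had 120 reads in 36N and 74 in 36S, a difference of 0.72 (0.29 to 1.16). Adam8, a membrane metalloprotease gene, was at −0.68 (−1.05 to −0.32) and the only one of the 7 below the trend. The intervals of Slpi (0.28), Pglyrp1 (0.48, through a region 11240 bp upstream), Anxa1 (−0.19) and Cd177 (−0.29) all included 0. The list's median was 0.28 as deposited and 0.41 level-adjusted, and 3 of the 7 (Adam8, Cd177 and Anxa1) were below 0 as deposited, as Ngp and Camp were.

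Of the genes of secretory vesicles and the neutrophil surface, Csf3r alone was above 0 as deposited, and 27.9% of all genes were. Of 8 such genes 6 had a region (median −0.36 as deposited, 0.12 level-adjusted). Above the trend lay 4 of the 6, as did 51.8% of all genes. By the rule of 1 log2 unit 0 were higher or lower, against 7.37% and 12.6% of all genes. Csf3r, whose ligand is granulocyte colony-stimulating factor, had 359 reads in 36N and 292 in 36S (0.32, 0.10 to 0.55). The formyl peptide receptor gene Fpr1 was at −0.59 (−1.13 to −0.07), Cd33 at −0.56 (−0.85 to −0.28) and the integrin gene Itgb2 at −0.46 (−0.71 to −0.21). The intervals of Fpr2 (−0.26) and Itgam (−0.10) included 0. Among other S100 genes 3 of 5 had a region, and S100a10 was at 0.40 (0.08 to 0.72), S100a11 at −0.15 (−0.36 to 0.06) and S100a6 at −0.17. All 3 lay above the trend, as S100a9 did.

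Transcription factors that act on granule genes went both ways. Of 12 genes 9 had a region (median −0.16 as deposited, 0.46 level-adjusted). By the rule of 1 log2 unit 0 were higher and 1 was lower, against 7.37% and 12.6% of all genes. Spi1, the gene of PU.1, is in the table under its older symbol Sfpi1 and was named after its values were seen. Its stronger region, over the gene, had 765 reads in 36N and 873 in 36S (−0.16, −0.31 to −0.02), and lay 0.58 above the trend. Cebpa, the C/EBP factor of early granulocyte development, had 663 reads in 36N and 564 in 36S (0.26, 0.10 to 0.42). Cebpe, the C/EBP factor of secondary granule genes, had 258 reads in 36N and 377 in 36S (−0.52, −0.75 to −0.29). Cebpa and Cebpe thus differed in sign as deposited, and both were above the trend (1.0 and 0.12). Klf5 was at 0.45 (0.18 to 0.71), Cbfb, the partner of RUNX factors, at −0.24 (−0.45 to −0.03) and Runx1 at −0.43 (−0.84 to −0.01). Rara, a retinoic acid receptor gene, was at 0.38 (−0.15 to 0.92), and Gfi1 at 0.22 (−0.56 to 1.0) on 32 reads in 36N and 28 in 36S. Reads at mouse Gfi1 do not check the genotype of the human cDNA. The gene past the rule was Myb, at −1.17 (−1.57 to −0.79) through a region 27417 bp upstream that overlaps the predicted gene Gm33619.

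**Figure D5:**
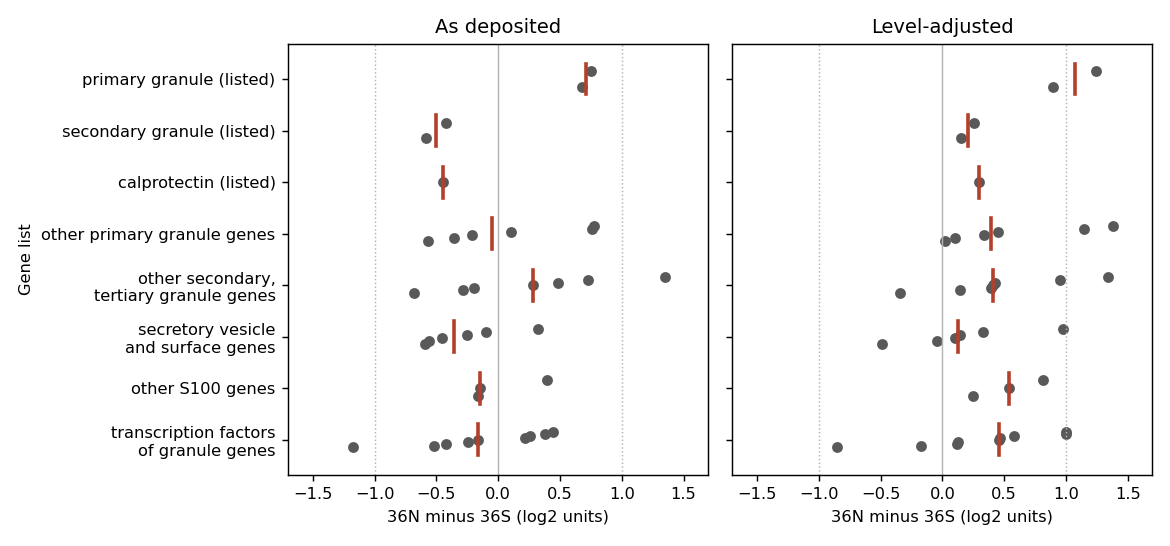
Difference 36N minus 36S (log2 units) for each measured gene (points) by list, as deposited on the left and level-adjusted on the right, with list medians (bars) and dotted lines at 1 log2 unit either way. The listed primary granule genes have the highest median in both panels (0.71 and 1.07), and further primary granule genes span −0.57 to 0.77 as deposited.

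Markers of other cell types in the spleen differed too. Erythroid markers (6 of 10 with a region) summed to 880 reads in 36N and 2974 in 36S, and T cell markers (4 of 7) to 344 in 36N and 1054 in 36S. Of the 6 erythroid markers 5 were lower by 1 log2 unit or more (12.6% of all genes were), but Ank1 was at 0.15 (−0.16 to 0.47). Monocyte markers (6 of 6) summed to 3135 reads in 36N and 2549 in 36S, of which a region 20860 bp from Ly6c2 held 1865 and 1712. Over the 4 whose region overlaps the gene the sums were 1069 in 36N and 627 in 36S. Klf4 (1.24) and F13a1 (1.12), 2 of these, were higher by over 1 log2 unit, against 7.37% of all genes. The neutrophil markers (3 of 6, with S100a9 among them) summed to 1167 in 36N and 1441 in 36S. Of these, Csf3r was higher in 36N (0.32), and the Ly6g region lies 20943 bp from its gene, over Ly6a2. Over the 2 whose region overlaps the gene (Csf3r and S100a9) the sums were 973 in 36N and 1145 in 36S. Leukocyte markers (3 of 4) summed to 1250 reads in 36N and 1425 in 36S, and the B cell marker Cd79b (1 of 5) had 83 in 36N and 91 in 36S. Stem and progenitor markers (4 of 4) summed to 555 reads in 36N and 629 in 36S, but 3 of the 4 were higher in 36N, and over the 2 whose region overlaps the gene (Kit and Flt3) the sums were 292 in 36N and 255 in 36S. No marker region was at 0 reads in either library. Their part in the granule gene values was not tested. The 36N library held 3292869 reads in regions (median 83) and the 36S library 4989632 (median 95). In deposited values 36N held 0.672 times the 36S total in regions, and the marker sums are not scaled to it. Level-adjusted medians were −1.42 for erythroid, −1.11 for T cell and 0.92 for monocyte markers. They were 0.29 for neutrophil, 0.57 for leukocyte and 0.60 for stem and progenitor markers, and Cd79b was at 0.10.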

How the data were processed

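The authors' deposited table gives log2 reads per region, not divided by length, for 20615 regions in 2 H3K9ac libraries. Tools in the submitters' processing notes are CASAVA 1.8.2, STAR 2.5.0c and SAMtools, with build mm10. Their roles and how regions were made are likewise not given in the sources used here. On a linear scale values are whole reads in 36S (but for 13 regions at 0.9, which stands for 0) and whole multiples of 1.02 in 36N, within 0.01 reads. The sources used here do not explain that constant. Distances in bp and gene assignments are other deposited values.

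Differences (36N minus 36S, log2) use no pseudocount. The level trend is a lowess curve (fraction 0.3, statsmodels 0.14.6). A gene was given its region with the highest mean level, and 10 symbols turned into dates (19 regions) were left out. Genes absent under their symbol were looked up by RefSeq synonyms, which added Spi1. Positions, strands and sequences come from RefSeq GRCm38.p6, the assembly behind mm10. Python 3.11.15, pandas 2.3.3 and SciPy 1.17.1 were used, and the procedure was tested on simulated data. Members and lists were chosen with earlier results of these data known. Named are all members, the 4 highest and 4 lowest of each further list, and the nearest flanking regions. Alternatives were other scalings, other regions per gene, a minimum of 20 reads, a 1.5-fold rule, S100a9 among secondary genes and means for medians. Division by all reads in regions was chosen after seeing the data.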

Additional observations from a re-analysis of the deposited data

How the results depend on the processing

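How many of the 5 measured genes pass, and the sign of their median, changed with the scaling, while Elane and Ctsg stayed above Ngp and Camp. None of the 5 passed the rule as deposited. After median centring 2 passed (Elane and Ctsg, against 12.9% of all genes), as after division by all reads in regions (against 16.3%) and under a 1.5-fold rule (against 13.1% higher and 46.0% lower). Ngp, at 0.668 times, lay just short of that rule. With either lowess fraction, or quantile normalization, 1 passed (Ctsg, against 8.66% to 8.75% of all genes). Every gene that passed was higher in 36N. The median of the 5 genes, −0.43 as deposited, was −0.029 after median centring, 0.15 after division by all reads in regions, 0.28 after quantile normalization, and 0.29 (fraction 0.3) or 0.34 (fraction 0.6) level-adjusted. Primary minus secondary, 1.22 as deposited, was 0.87 level-adjusted (0.88 with fraction 0.6) and 0.88 after quantile normalization. In its 11 settings it stayed between 0.87 and 1.22, but most of these could not move it. Median centring and division by all reads in regions shift both groups alike, and with 2 genes per group the mean equals the median. The minimum of 20 reads and the rules on overlapping or near regions kept the same regions. The other choices of region and the minimum of 20 reads changed no call. Elane and Ctsg were above 0 in all 9 settings run for each gene, but these settings were no check of the sign. Each of these genes has 1 region, so other choices of region left its value as it was, and every other scaling raised it. No paired analysis was possible because each genotype had 1 library. At 116 and 74 reads, Elane's interval spans 0.24 to 1.12.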

Other observations

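The word upstream or downstream in the authors' deposited table gives the place of the gene relative to the region, not of the region relative to the gene. Of 2292 regions that overlap no assigned gene and whose gene has 1 known strand in RefSeq, the word was the opposite of the region's own side in 2287. The second regions of Camp and S100a9, 11895 and 6280 bp away, and the regions given to Pglyrp1 and Myb therefore lie before those genes' starts.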
